A study of Homo sapiens with 8 samples.

Results

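The fibroblast growth factor (FGF) axis was followed in human embryonic stem cells (hESCs) through 10 genes, namely the ligands FGF2 and FGF4, the receptors FGFR1, FGFR2, FGFR3 and FGFR4, the feedback inhibitors DUSP6, SPRY2 and SPRY4, and the transcription factor gene ETV4. The genes were taken by symbol, all 10 were found among the 60675 genes of the expression tables, and all 10 were among the 19499 genes with enough counts to be tested. RNA-seq was available for 8 samples of the H9 (WA09) hESC line, with 2 samples from each of 4 culture ages. By their labels, P1 hESCs were in the passage 40s, P2 hESCs in the passage 100s, P3 hESCs in the passage 200s and P4 hESCs in the passage 300s. No treatment or engineered allele is given for any sample, and all lines were grown without feeder cells on Matrigel in mTeSR1 medium and passaged with dispase. P3 and P4 hESCs are the lines described by the study as having a gain at 20q11.21 and resistance to cell death. Each culture age is 1 line of the same origin, so culture age and any other difference between the lines cannot be told apart. The labels do not say whether the 2 samples of a line came from separate cultures, so the p-values measure only the spread between these samples, which may be technical.

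FGF ligands bind receptor tyrosine kinases together with heparan sulphate, and the activated receptors signal through the adaptor FRS2 to RAS, RAF, MEK and the kinase ERK. Active ERK induces transcription factors such as ETV4 and EGR1 and also its own inhibitors, among them DUSP6, a cytoplasmic phosphatase that removes phosphate from ERK, and the Sprouty proteins, which act upstream at the level of RAS and RAF. In hESCs, FGF2 supports the undifferentiated state, and mTeSR1 itself supplies recombinant FGF2 protein, so that the FGF2 transcript measured here is only the contribution of the cells.

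FGFR1 was by far the most abundant of the 10 transcripts, and FGF4 was close to silent. In TPM, which corrects for transcript length as well as for the size of the library, the mean over the 8 samples was 293 TPM for FGFR1, 101 for DUSP6, 85.2 for ETV4, 63.6 for SPRY4, 48.0 for FGFR4, 45.8 for FGFR2, 40.2 for FGF2, 38.5 for SPRY2, 32.4 for FGFR3 and 0.903 for FGF4. The middle of this order was loose, because the samples of FGF2 ranged from 20.4 to 65.5 TPM, those of SPRY2 from 25.1 to 52.2 TPM and those of FGFR3 from 6.24 to 78.8 TPM. For comparisons of 1 gene between samples, values are given below in CPM, counts scaled to the size and composition of the library but not to transcript length.

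The cells carried the transcripts of undifferentiated hESCs in every sample. POU5F1 ranged from 1095 to 2421 TPM, SOX2 from 119 to 191 TPM and NANOG from 33.6 to 80.5 TPM, and all 10 markers on that list reached 1 TPM. Of these 10, PODXL was lower in P3 and P4 against P1 and P2 hESCs (log2 fold change -0.65, edgeR quasi-likelihood adjusted p = 0.0284) and in P4 against P1 (-0.87, adjusted p = 0.0265), and ZFP42 was higher in P4 than in P1 (1.16, adjusted p = 0.0265). In P3 and P4 against P1 and P2 hESCs, DCX of the neuroectoderm list (0.75, adjusted p = 0.0339) and POSTN of the fibroblast list (1.34, adjusted p = 0.0401) were called higher. POSTN averaged 0.888 TPM and its groups overlapped. The other tested fibroblast markers, COL1A1 (-0.64), COL1A2 (-0.23) and THY1 (0.55), were not called. Nor were PAX6 (0.57) and TUBB3 (0.28) of the neuroectoderm list. KRT7 of the trophectoderm or amnion list, at a mean of 9.79 TPM, stood lower in all P3 and P4 samples than in all P1 and P2 samples. So did PODXL, LIN28A, TBXT and EOMES, and 9.19% of all tested genes, while DCX was separated the other way. KRT7, LIN28A, TBXT and EOMES were not called in that comparison. KRT7 was called lower in P4 than in P1 (-1.08, adjusted p = 0.0219). The other tested markers of its list averaged no more than 0.87 TPM and were not called there. Of them, CDX2 (1.55), HAND1 (1.28), GATA3 (1.21) and ISL1 (1.57) stood higher in P4 and TFAP2A (-1.91) lower. In P4 against P3, EOMES was higher (2.69, adjusted p = 0.0247) and FOXA2 was lower (-4.25, adjusted p = 0.000782). These markers were named after their values were seen. Mesoderm and endoderm markers summed to 2.24 to 4.73 TPM in P1 and P2 hESCs and to 1.55 to 4.35 TPM in P3 and P4 hESCs, with 6 of 9 markers under 1 TPM in every sample. The sums for trophectoderm or amnion markers were 12.2 to 19.3 TPM and 6.5 to 12.1 TPM, those for neuroectoderm markers 118 to 162 TPM and 119 to 161 TPM, and those for fibroblast markers 457 to 622 TPM and 491 to 775 TPM, in the same order of groups. Most of the fibroblast sum came from THY1 (mean 417 TPM over the 8 samples) and nearly all of the neuroectoderm sum from TUBB3 (mean 134 TPM). In bulk RNA, fewer cells of a type and less RNA per cell cannot be told apart. Totals were 26874899 to 38095600 counts per sample, and the share of mitochondrial counts was high in P1 replicate 2 (18.5%), P3 replicate 1 (18.4%) and P4 replicate 1 (17.2%) and between 5.89% and 9.84% in the other 5 samples, so results that rest on those 3 samples are also given without them.

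The promoters of the 3 genes that passed the test between P3 and P2 hESCs, FGFR3, FGF2 and SPRY4, are shown because these are the members whose transcript level the comparisons below turn on. The sequences are from RefSeq on GRCh38.p14, limited to the bases of the 250 before the gene start that lie outside annotated exons, and are written 5′ to 3′ on the strand of the gene. Capitals mark matches on either strand to the ETS core CCGGAA, the EGR motif GCGNGGGCG or the GC box GGGCGG, and the last 2 can overlap.
FGFR3, chr4:1793043-1793292, plus strand: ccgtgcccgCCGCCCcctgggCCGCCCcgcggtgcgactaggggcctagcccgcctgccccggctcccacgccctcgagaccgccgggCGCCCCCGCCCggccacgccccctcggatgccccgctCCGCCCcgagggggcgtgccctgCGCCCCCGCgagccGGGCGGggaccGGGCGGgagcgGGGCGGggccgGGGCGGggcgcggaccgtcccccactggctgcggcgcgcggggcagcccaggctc
FGF2, chr4:122826581-122826707, plus strand: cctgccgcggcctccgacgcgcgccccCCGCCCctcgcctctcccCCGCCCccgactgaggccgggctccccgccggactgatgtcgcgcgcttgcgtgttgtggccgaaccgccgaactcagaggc
SPRY4, chr5:142324418-142324497, minus strand: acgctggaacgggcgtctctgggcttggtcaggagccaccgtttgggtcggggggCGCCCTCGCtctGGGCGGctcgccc

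FGFR3 held 2 EGR matches and 8 GC boxes in 250 bases that run up to its start. The FGF2 stretch of 127 bases ends 123 bases before the RefSeq start and held 2 GC boxes and no ETS or EGR match. The SPRY4 stretch of 80 bases ends 170 bases before the RefSeq start and held 1 EGR match and 1 GC box. It lies inside the GENCODE span of SPRY4 given below, which starts farther upstream. Full windows of 250 bases were scanned for 7 of the 10 members. FGFR1 was left out of the scan, and no window was at hand for FGF4 and ETV4. An ETS match was present in 1 window (SPRY2), an EGR match in 4 (FGFR2, FGFR3, SPRY2 and SPRY4) and a GC box in 6. Across 35116 promoter windows of the same length, 14.5% held the ETS core, 8.41% the EGR motif and 42.6% the GC box. A match describes the letters only.

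FGF2, the main ligand used to maintain hESCs, was lower in P3 and P4 hESCs than in P1 and P2 hESCs (ENSG00000138685, chr4:122826708-122898236, plus strand). It stood at 296 and 264 CPM in P1 replicates 1 and 2, at 281 and 213 CPM in P2, at 151 and 115 CPM in P3 and at 202 and 125 CPM in P4. Every P3 and P4 sample lay below every P1 and P2 sample, although P4 replicate 1 came within 11.4 CPM of P2 replicate 2. The mean was 263 ± 36.1 CPM (SD, n = 4) in P1 and P2 hESCs and 148 ± 38.9 CPM (SD, n = 4) in P3 and P4 hESCs. The log2 fold change was -0.83 (SE 0.19, edgeR quasi-likelihood adjusted p = 0.0248), a level 1.78-fold higher in the early lines.

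Among the 4 comparisons of lines, edgeR called FGF2 only at the step from P2 to P3. P3 was below P2 by a log2 fold change of -0.89 (SE 0.25, adjusted p = 0.0404), whereas P2 against P1 gave -0.18 (SE 0.25, adjusted p = 0.858) and P4 against P3 gave 0.30 (SE 0.25, adjusted p = 0.556), neither of which passed the test. P4 against P1, the full span of passages, gave -0.78 (SE 0.25, adjusted p = 0.0959). Without the 3 samples of high mitochondrial share, FGF2 was lower in P3 and P4 hESCs by a log2 fold change of -1.15 (adjusted p = 0.0369). Leaving out P1 replicate 1, P1 replicate 2, P2 replicate 1, P3 replicate 1 or P3 replicate 2 left FGF2 above the threshold of 0.05 in P3 and P4 against P1 and P2 hESCs, at adjusted p-values of 0.0506 to 0.0720. Some exons of FGF2 overlap those of NUDT6 on the other strand, which stood at 2.69 to 9.05 CPM, so a small part of its counts would be uncertain if strand had not been used in counting. The effective length of FGF2 varied between samples from 5073 to 6578 bases, and in TPM, which depends on it, FGF2 was again lower in all P3 and P4 samples (20.4 to 32.1 TPM) than in all P1 and P2 samples (42.4 to 65.5 TPM).

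FGF4, a ligand made by the inner cell mass and undifferentiated hESCs, was barely transcribed. It was counted at 1.86 and 3.34 CPM in P1, 1.39 and 1.26 CPM in P2, 1.99 and 1.90 CPM in P3 and 2.61 and 3.87 CPM in P4, with a lowest expected count of 45. Its groups overlapped, and the log2 fold change between P3 and P4 and P1 and P2 hESCs was 0.40 (SE 0.36, adjusted p = 0.519).

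**Figure D1:**
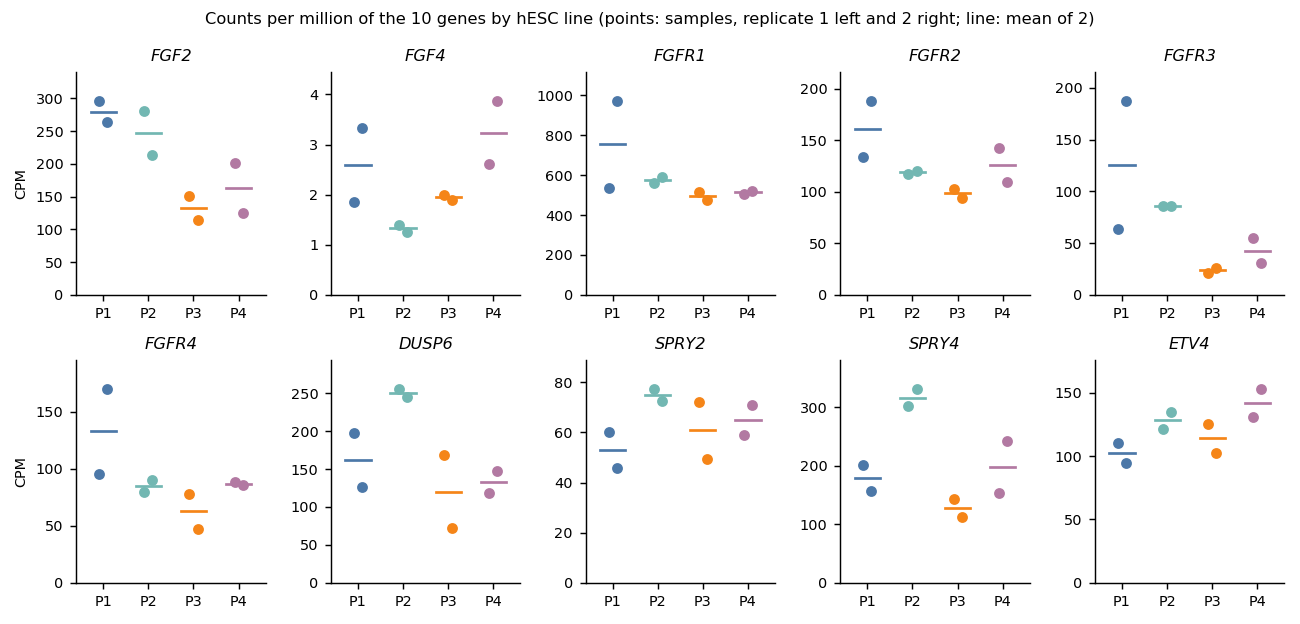
CPM (y axes, each from 0) of the 10 genes by line, where points are the 2 samples of a line and the bar is their mean. FGF2 and FGFR3 sit lower in all 4 P3 and P4 samples than in any P1 or P2 sample, DUSP6 and SPRY4 peak in P2, and the 4 receptors all have their highest point in P1 replicate 2.

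FGFR3, a receptor tyrosine kinase that binds several FGF ligands, was lower in P3 and P4 hESCs and had the largest log2 fold change of the 10 members in that comparison (ENSG00000068078, chr4:1793293-1808872, plus strand). It stood at 63.1 and 187 CPM in P1, 85.8 and 85.9 CPM in P2, 21.6 and 25.6 CPM in P3 and 54.8 and 30.4 CPM in P4. All P3 and P4 samples were below all P1 and P2 samples, yet the P1 pair differed 2.97-fold and the P4 pair 1.80-fold. The mean fell from 106 ± 55.5 CPM (SD, n = 4) in P1 and P2 hESCs to 33.1 ± 14.9 CPM (SD, n = 4) in P3 and P4 hESCs, with a log2 fold change of -1.68 (SE 0.36, adjusted p = 0.0196), or 3.19-fold. P3 against P2 gave -1.87 (SE 0.41, adjusted p = 0.0143) and P4 against P1 gave -1.56 (SE 0.40, adjusted p = 0.0412). The call between P4 and P1 was kept under 9 of 18 alternative settings. It was lost without P1 replicate 2 (log2 fold change -0.57, adjusted p = 0.530), without P4 replicate 2 (-1.19, adjusted p = 0.253) and without either P2 sample (adjusted p = 0.0528 and 0.0523), and also with DESeq2, with both limma scales and with only the 4 samples compared. Without all 3 samples of high mitochondrial share, FGFR3 was lower in P3 and P4 hESCs by a log2 fold change of -1.49 (adjusted p = 0.0198).

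FGFR1, the dominant receptor, stood at 536 and 972 CPM in P1, 559 and 589 CPM in P2, 516 and 475 CPM in P3 and 507 and 522 CPM in P4. The groups did not overlap, with P1 replicate 2 far above the other 7 samples, but the log2 fold change of -0.40 between P3 and P4 and P1 and P2 hESCs did not pass the test (SE 0.19, adjusted p = 0.220). Its exons overlap those of LETM2 and AC087623.1 on the other strand, which both passed the test downward in that comparison (log2 fold changes of -1.62 and -1.46, adjusted p = 0.0178 and 0.0240) but stood at no more than 18.2 CPM.

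FGFR2 stood at 133 and 188 CPM in P1, 118 and 120 CPM in P2, 103 and 93.9 CPM in P3 and 143 and 110 CPM in P4. Its log2 fold change was -0.31 (SE 0.19, adjusted p = 0.320). FGFR4 stood at 95.4 and 170 CPM in P1, 79.4 and 89.8 CPM in P2, 77.9 and 47.4 CPM in P3 and 88.3 and 85.4 CPM in P4. Its log2 fold change was -0.54 (SE 0.26, adjusted p = 0.220). Both receptors overlapped between the groups and neither passed the test. All 4 receptors were highest in P1 replicate 2, 1 of the samples of high mitochondrial share.

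The summed level of the 4 receptors was 422 and 652 TPM in P1, 486 and 485 TPM in P2, 226 and 327 TPM in P3 and 316 and 440 TPM in P4. Its mean was 327 ± 87.8 TPM (SD, n = 4) in P3 and P4 hESCs and 511 ± 98.7 TPM (SD, n = 4) in P1 and P2 hESCs (two-sided exact permutation test, p = 0.0571, adjusted over 5 receptor measures p = 0.143). FGFR1 supplied 65.7% to 76.3% of the sum in every sample. The share of FGFR3 was 7.68% to 12.1% in P1 and P2 hESCs and 2.76% to 7.31% in P3 and P4 hESCs, and these ranges did not overlap (exact permutation p = 0.0286, the smallest that 4 against 4 samples can give, adjusted p = 0.143). The shares of FGFR1, FGFR2 and FGFR4 overlapped between the groups, with exact permutation p-values of 0.229, 0.286 and 0.800. The permutations treated the 8 samples as exchangeable, although they are 2 samples from each of 4 lines. These p-values therefore do not measure the spread between lines.

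**Figure D2:**
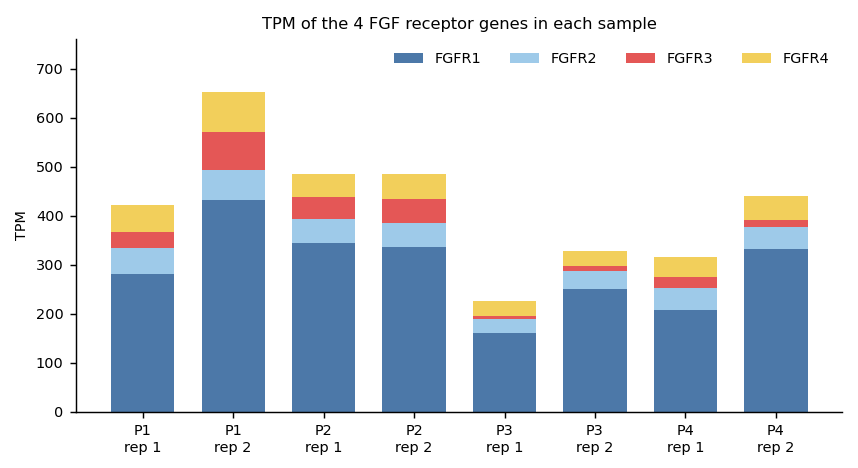
Stacked TPM (y axis, from 0) of FGFR1, FGFR2, FGFR3 and FGFR4 in each of the 8 samples. FGFR1 makes up 65.7% to 76.3% of every bar, and the FGFR3 segment is thinnest in the P3 samples and in P4 replicate 2.

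DUSP6, the ERK phosphatase, stood highest in P2 hESCs, and its step from P2 to P3 was close to the threshold (ENSG00000139318, chr12:89347232-89353271, minus strand). It stood at 197 and 127 CPM in P1, 256 and 245 CPM in P2, 168 and 72.01 CPM in P3 and 119 and 147 CPM in P4. Both P3 samples lay below both P2 samples, but they were 2.34-fold apart from each other. P3 against P2 gave a log2 fold change of -1.06 (SE 0.33, adjusted p = 0.0589), and P3 and P4 against P1 and P2 gave -0.71 (SE 0.27, adjusted p = 0.135). The step from P2 to P3 was called under 7 of 18 alternative settings, among them DESeq2 (log2 fold change -1.06, adjusted p = 0.0118), edgeR with no filter on low counts (-1.05, adjusted p = 0.000164) and edgeR without P3 replicate 1, the library of high mitochondrial share (-1.80, adjusted p = 0.00577). No setting called DUSP6 in P3 and P4 against P1 and P2 hESCs.

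SPRY4, a Sprouty inhibitor of receptor tyrosine kinase signalling, was lower in P3 than in P2 hESCs (ENSG00000187678, chr5:142310427-142326455, minus strand). It stood at 201 and 157 CPM in P1, 302 and 331 CPM in P2, 143 and 113 CPM in P3 and 153 and 242 CPM in P4. Line means were 179 ± 31.0, 317 ± 20.8, 128 ± 21.0 and 198 ± 63.1 CPM (SD, n = 2 each) from P1 to P4. P3 was below P2 by a log2 fold change of -1.31 (SE 0.25, adjusted p = 0.00637), which is 2.48-fold. P2 against P1 (0.82, SE 0.24, adjusted p = 0.404) and P4 against P3 (0.63, SE 0.24, adjusted p = 0.181) did not pass the test, and P4 against P1 gave 0.15 (SE 0.24, adjusted p = 0.774). The P4 samples overlapped those of P1, and P3 and P4 against P1 and P2 hESCs gave -0.61 (SE 0.27, adjusted p = 0.192), which passed the test in the 4-line model (-0.58, adjusted p = 0.0381) and under no other of the 18 settings.

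SPRY2, another Sprouty inhibitor, stood at 60.2 and 45.7 CPM in P1, 77.4 and 72.5 CPM in P2, 72.1 and 49.6 CPM in P3 and 59.1 and 70.9 CPM in P4. The groups overlapped and the log2 fold change of -0.02 was smaller than its standard error of 0.19 (adjusted p = 0.954). ETV4, an ETS family transcription factor induced by FGF signalling, stood at 110 and 94.8 CPM in P1, 122 and 135 CPM in P2, 125 and 102 CPM in P3 and 131 and 153 CPM in P4. Its log2 fold change was 0.15 (SE 0.16, adjusted p = 0.598) between P3 and P4 and P1 and P2 hESCs, and 0.47 (SE 0.19, adjusted p = 0.184) between P4 and P1. ETV4 shares exonic positions with DHX8 on the other strand, which stood at 53.9 to 71.3 CPM, so its counts would be uncertain if strand had not been used in counting.

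Against the whole transcriptome, the members called in P3 and P4 against P1 and P2 hESCs were 2 of 10, both lower, where 7.54% of the 19499 tested genes were called in either direction and 4.04% were called lower. The 10 members had a median of -0.47 on the log2 scale, beside 0.01 for all tested genes. The samples did not overlap, with P3 and P4 lower, for 3 members (FGF2, FGFR1 and FGFR3), and for 9.19% of all tested genes. In TPM the 3 members were FGF2, FGFR2 and FGFR3, since FGFR1 overlapped on that scale and FGFR2 stood at 27.7 to 44.9 TPM in P3 and P4 hESCs and at 48.8 to 61.6 TPM in P1 and P2 hESCs. The thresholds of the study (absolute log2 fold change above 1 and adjusted p under 0.01) were met by 2.2% of tested genes and by no member. At an unadjusted p under 0.05, edgeR gave 4 members, beside 4967 of the 19499 tested genes. DESeq2 and limma called 2 members each after adjustment. Leaving out P3 replicate 1 or P3 replicate 2 removed both calls, with adjusted p-values of 0.0506 and 0.0583 for FGF2 and 0.0515 and 0.0537 for FGFR3.

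Between P3 and P2 hESCs, 3 of the 10 members (FGF2, FGFR3 and SPRY4) were called, all lower, where 11.7% of tested genes were called and 6.67% were called lower. All P3 samples lay below all P2 samples for 8 members, against 32.5% of all tested genes. Leaving out P2 replicate 2 removed all 3 calls. FGF2 was also lost without P1 replicate 1, P1 replicate 2, P2 replicate 1, P3 replicate 1 or P3 replicate 2, so that it stayed called in 2 of 8 such fits (adjusted p up to 0.235). FGFR3 was also lost without P3 replicate 1 (adjusted p = 0.0793). Without the 3 samples of high mitochondrial share, P3 against P2 gave log2 fold changes of -1.10 for FGF2, -1.75 for FGFR3 and -1.49 for SPRY4. DUSP6 gave -1.79, FGFR4 -0.83 and SPRY2 -0.59. FGFR1, FGFR2 and ETV4 gave -0.27, -0.34 and -0.32, and FGF4 gave 0.52. In that fit the spread came from the P2 pair alone, and the single P1, P3 and P4 samples were assumed to vary like it. Of 6 tested mesoderm and endoderm markers, 4 were lower and 1 was higher in P3 than in P2, at summed levels of 4.16 to 4.73 TPM in P2 and 3.78 to 4.35 TPM in P3. The lower ones were TBXT, EOMES, GATA4 and GATA6, and the higher one was FOXA2, which stood at 0.37 and 0.32 TPM in P2 and at 2.72 and 3.63 TPM in P3. On the other marker lists, ZFP42 (log2 fold change -0.93, adjusted p = 0.0451) and HAND1 (1.57 and 1.85 TPM in P2, listed at 0 in both P3 samples) were lower and POSTN (1.86, adjusted p = 0.0195) was higher in P3 than in P2. COL1A1, COL1A2 and THY1, the other tested fibroblast markers, were not called at that step (log2 fold changes -0.17, -0.42 and 0.33). The part of these markers in the result was not tested.

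No member was called between P2 and P1 by edgeR, DESeq2 or limma, where edgeR called 0.00513% of tested genes. At an unadjusted p under 0.05, edgeR gave 4 members and 1782 of the 19499 tested genes. No member was called between P4 and P3 by any of the 3 tools, where edgeR called 3.31% of tested genes. There, an unadjusted p under 0.05 was reached by 1 member and by 3739 of the 19499 tested genes. In P4 against P1, FGFR3 was the 1 member called by edgeR, where 5.94% of tested genes were called and 3.4% were called lower. DESeq2 called FGF2 in its place (log2 fold change -0.77, adjusted p = 0.0396), and limma called neither.

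**Figure D3:**
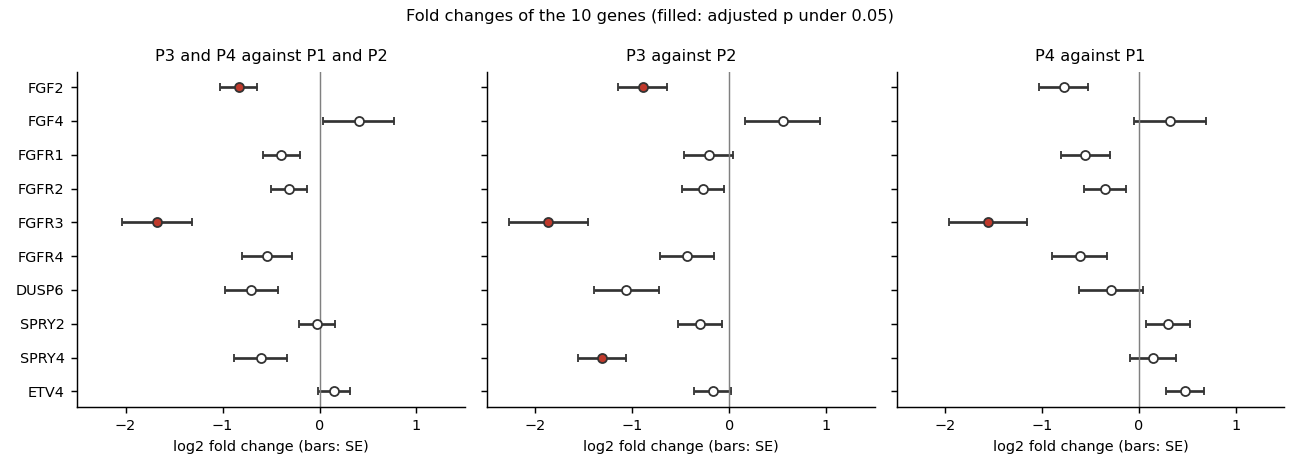
Log2 fold changes (x axes) of the 10 genes with their standard errors in 3 comparisons, with filled points where the edgeR adjusted p was under 0.05. FGF2 and FGFR3 are filled in the first panel, FGF2, FGFR3 and SPRY4 in the second, and FGFR3 in the third.

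The rest of the pathway was read from 5 lists of 85 genes, of which 78 were tested. In P3 and P4 against P1 and P2 hESCs, 5 were called higher and 6 lower, with a median of -0.10 on the log2 scale. Of all 19499 tested genes, 7.54% were called there in either direction and 4.04% were called lower. Without the 3 samples of high mitochondrial share, 3 were called, namely GPC3, ARAF and EGR1, and without P4 replicate 2 the number was 18. Ligands outside the members were mostly silent, since only 4 of 20 averaged at least 1 TPM. Of those, FGF13, an intracellular FGF homologous factor that is not secreted, stood at 29.8 and 23.8 CPM in P1, 26.5 and 22.7 CPM in P2, 40.7 and 38.1 CPM in P3 and 59.5 and 40.9 CPM in P4. FGF13 was higher in all P3 and P4 samples, with a log2 fold change of 0.80 (SE 0.17, adjusted p = 0.0185). FGF12, of the same intracellular group, gave 0.53 (SE 0.17, adjusted p = 0.0827), FGF11 gave -0.39 (SE 0.23, adjusted p = 0.308) and FGF19, a secreted hormone-like ligand, gave -0.64 (SE 0.34, adjusted p = 0.257). FGF21, another hormone-like ligand, never exceeded 1.57 CPM, and was lower in P3 than in P2 (log2 fold change -3.86, SE 0.79, adjusted p = 0.00984).

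Among the 16 tested co-receptors and binding proteins, 2 were higher and 2 lower in P3 and P4 hESCs, where 7.54% of all tested genes were called. GPC3, a heparan sulphate proteoglycan anchored to the cell surface, stood at 229 and 319 CPM in P1, 229 and 237 CPM in P2, 107 and 85.9 CPM in P3 and 70.8 and 77.0 CPM in P4. The GPC3 groups were far apart, with a log2 fold change of -1.57 (SE 0.17, adjusted p = 0.000419). FGFBP3, a secreted carrier of FGF ligands, ran from 180 and 215 CPM in P1 through 134 and 130 CPM in P2 and 91.2 and 91.2 CPM in P3 to 75.5 and 40.6 CPM in P4 (log2 fold change -1.14, SE 0.26, adjusted p = 0.0227). GPC4 was lower in P4 than in P1 (log2 fold change -1.18, SE 0.28, adjusted p = 0.0261), and FLRT3, at no more than 2.56 CPM, likewise (-2.10, SE 0.52, adjusted p = 0.0350). GPC6 and FLRT1 were higher in P3 and P4 hESCs, by log2 fold changes of 0.76 (SE 0.20, adjusted p = 0.0451) and 1.12 (SE 0.23, adjusted p = 0.0152), FLRT1 at 1.54 to 4.43 CPM.

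Of the 23 genes of the RAS-ERK cascade, 1 was called in P3 and P4 against P1 and P2 hESCs, where 7.54% of all tested genes were called. ARAF, a RAF family kinase, stood at 32.5 and 42.3 CPM in P1, 34.0 and 36.2 CPM in P2, 82.7 and 62.5 CPM in P3 and 75.5 and 78.5 CPM in P4. The ARAF groups did not overlap, with a log2 fold change of 1.05 (SE 0.14, adjusted p = 0.00148). Between P3 and P2, HRAS, which encodes a RAS GTPase, was also higher (0.87, SE 0.25, adjusted p = 0.0435), while the scaffold gene KSR1 (-0.78, SE 0.20, adjusted p = 0.0295), its relative KSR2 (-1.33, SE 0.37, adjusted p = 0.0365) and the ERK-activated kinase gene RPS6KA2 (-0.97, SE 0.24, adjusted p = 0.0229) were lower. ARAF, HRAS, KSR1 and RPS6KA2 lie outside the rule for named genes and were chosen after their values were seen, as were SPRED2, FOS, FOSB and ETV5 below.

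Of the 10 feedback inhibitors outside the members, 1 was higher and 1 lower in P3 and P4 against P1 and P2 hESCs. Of all tested genes, 7.54% were called in that comparison. DUSP4, a nuclear phosphatase of ERK, stood at 26.8 and 21.4 CPM in P1, 35.6 and 37.6 CPM in P2, 12.4 and 8.98 CPM in P3 and 12.8 and 22.0 CPM in P4. The groups touched, with P4 replicate 2 above P1 replicate 2, and DUSP4 was lower in P3 and P4 hESCs (log2 fold change -1.11, SE 0.27, adjusted p = 0.0323) and in P3 against P2 (-1.77, SE 0.28, adjusted p = 0.00244). SPRED2, which inhibits RAF activation, was higher in P3 and P4 hESCs (0.63, SE 0.17, adjusted p = 0.0424). SPRY1 was higher in P4 than in P1 (1.27, SE 0.27, adjusted p = 0.0177), at 32.9 and 60.4 CPM against 20.4 and 18.2 CPM. SPRY3 was higher in P3 than in P2 (1.16, SE 0.31, adjusted p = 0.0312), and SPRED3 was lower in P4 than in P3 (-1.47, SE 0.32, adjusted p = 0.0267).

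Early response genes that ERK induces were lower in P3 than in P2 hESCs for many of the genes listed. Of 14 tested, 3 were lower and none higher in P3 and P4 against P1 and P2 hESCs, where 4.04% of all tested genes were called lower. In P3 against P2, 7 were lower and none higher, where 6.67% of all tested genes were called lower. In P4 against P3, 4 were higher and none lower, where 428 of the 19499 tested genes were called higher. The medians of the 14 log2 fold changes were -0.59, -1.57 and 0.94 in these comparisons. Without the 3 samples of high mitochondrial share the medians were -0.62, -1.53 and 1.25, with P3 and P4 then left as single samples. EGR1, a zinc finger transcription factor, stood at 468 and 461 CPM in P1, 438 and 447 CPM in P2, 23.3 and 141 CPM in P3 and 16.2 and 162 CPM in P4. All P3 and P4 samples of EGR1 were far below all P1 and P2 samples, with a log2 fold change of -2.41 (SE 0.62, adjusted p = 0.0385). EGR2 and EGR3 followed with -2.07 (SE 0.47, adjusted p = 0.0234) and -2.79 (SE 0.43, adjusted p = 0.00296), and EGR3 ran from 21.1 to 44.8 CPM in P1 and P2 hESCs and from 1.84 to 8.61 CPM in P3 and P4 hESCs.

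The lowest EGR1 values lay in the samples of high mitochondrial share of P3 and P4. P3 replicate 1 was 6.04-fold and P4 replicate 1 was 9.99-fold below the other sample of its line, and FOSB, an AP-1 subunit gene, was 10.4-fold and 38-fold lower in the same samples. FOS, another AP-1 subunit gene, was 4.81-fold and 14.5-fold lower there. In P1 replicate 2, of equal mitochondrial share, EGR1 was at the level of P1 replicate 1, and FOS and FOSB were higher than in it. FOS and FOSB were not called between P3 and P4 and P1 and P2 hESCs (log2 fold changes of -0.57 and -0.21, SE 0.68 and 0.93, adjusted p = 0.639 and 0.913). Without the 3 samples, EGR1 was lower by a log2 fold change of -1.58 (adjusted p = 0.00626), while EGR2 (-1.42, adjusted p = 0.132) and EGR3 (-2.82, adjusted p = 0.0886) did not pass the test.

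FOSL1, MYC, JUNB and IER2 were lower in P3 than in P2 and higher in P4 than in P3. FOSL1, an AP-1 subunit gene, stood at 10.8 and 6.05 CPM in P1, 13.9 and 17.8 CPM in P2, 1.36 and 0.892 CPM in P3 and 11.0 and 11.0 CPM in P4. FOSL1 was lower in P3 than in P2 (log2 fold change -3.81, SE 0.36, adjusted p = 6.01e-05) and higher in P4 than in P3 (3.29, SE 0.36, adjusted p = 0.000391). MYC, a growth regulator, stood at 147 and 105 CPM in P1, 145 and 153 CPM in P2, 54.6 and 30.9 CPM in P3 and 81.1 and 109 CPM in P4. MYC gave log2 fold changes of -1.80 (SE 0.28, adjusted p = 0.00205) and 1.16 (SE 0.27, adjusted p = 0.0397) at those steps. JUNB (-1.64 and 1.51, adjusted p = 0.00981 and 0.0289) and IER2 (-1.38 and 0.93, adjusted p = 0.00186 and 0.0313) followed the same course, and IER3 gave -1.49 and 0.95, of which the first passed the test (adjusted p = 0.00280 and 0.0512). ETV5, the closest relative of ETV4 on the list, was higher in P4 than in P1 (1.10, SE 0.29, adjusted p = 0.0432).

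The pathway calls in P3 and P4 against P1 and P2 hESCs differed in how often they were kept over the 18 alternative settings. GPC3 and ARAF were called under 18, EGR3 under 17, FGFBP3 under 14, FLRT1, EGR1 and EGR2 under 13 each, FGF13 under 12, DUSP4 under 9, and GPC6 and SPRED2 under 7 each. EGR1 was lost without P1 replicate 1, P1 replicate 2, P2 replicate 1, P2 replicate 2 or P3 replicate 1, each in turn. EGR2 was lost without P1 replicate 2, P2 replicate 1, P2 replicate 2 or P3 replicate 2. FGFBP3 was lost without P1 replicate 1, P1 replicate 2 or P4 replicate 1. FLRT1 was lost without either P2 sample, and FGF13 without P1 replicate 2 or either P2 sample. DUSP4 was kept in 2 of 8 fits with a sample left out, those without P1 replicate 2 or P4 replicate 2. GPC6 was kept in 2 of 8, those without a P4 sample. SPRED2 was kept in 1 of 8, that without P4 replicate 1. In P3 against P2, FOSL1, EGR3, MYC, DUSP4, IER2 and IER3 were called under all 18. EGR2 and JUNB were called under 17, FGF21 under 16, GPC6 under 14, SPRY3 under 13, KSR1 and RPS6KA2 under 12, and KSR2 and HRAS under 9. In P4 against P1, GPC3 and FGFBP3 were called under all 18, GPC4 under 16, SPRY1 under 13, ETV5 under 10, FLRT3 under 9 and FLRT1 under 8. In P4 against P3, FOSL1 was called under all 18, JUNB and SPRED3 under 13, IER2 under 10 and MYC under 9. JUNB, SPRED3, IER2 and MYC were each lost without P4 replicate 2 (adjusted p = 0.215, 0.174, 0.201 and 0.252). At the span from P1 to P4, GPC4 and SPRY1 were both lost without P1 replicate 2 (adjusted p = 0.289 and 0.185) or P4 replicate 2 (0.181 and 0.145), and FLRT3 without any of the P4 or P2 samples or P1 replicate 2 (adjusted p up to 0.325).

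**Figure D4:**
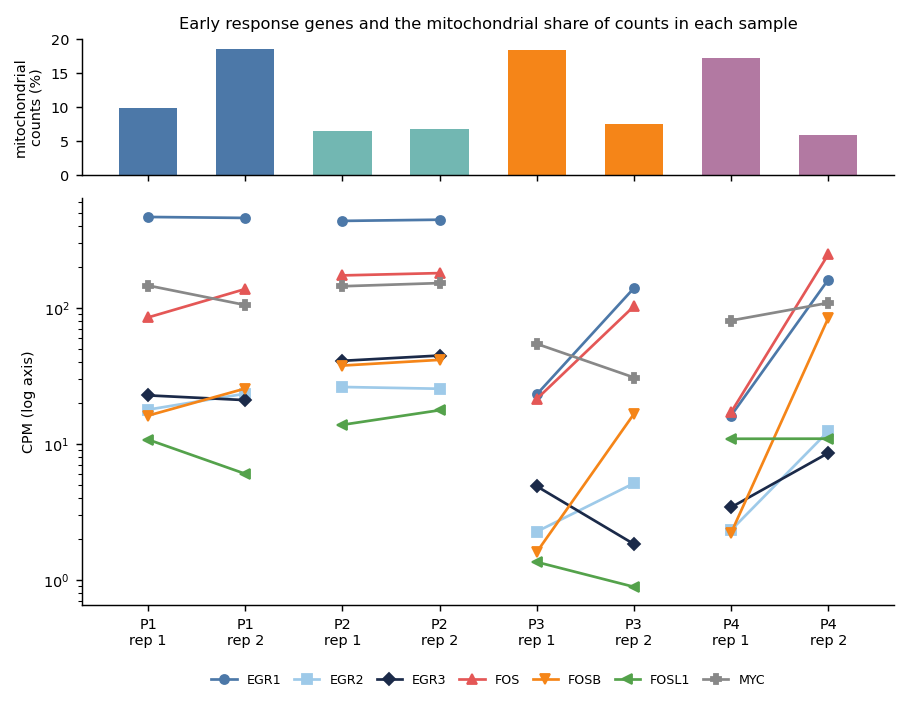
The upper panel gives the mitochondrial share of counts (%) and the lower panel the CPM (log axis) of 7 early response genes in the 8 samples, with lines joining the 2 samples of a line. EGR1, FOS and FOSB drop in P3 replicate 1 and P4 replicate 1, which have shares of 18.4% and 17.2%, but not in P1 replicate 2, which has 18.5%, and FOSL1 is lowest in both P3 samples.

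**Figure D5:**
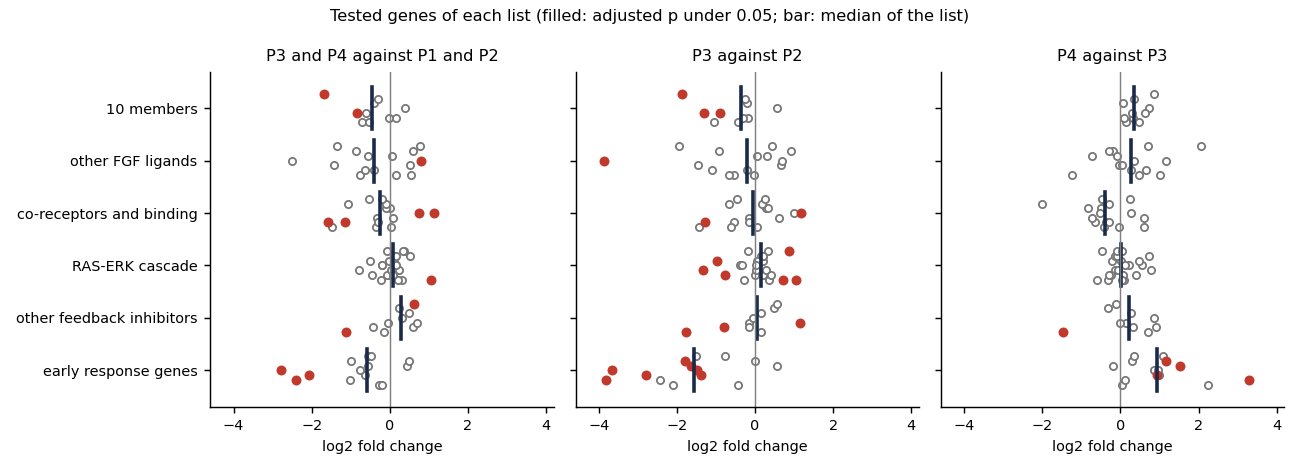
Log2 fold changes (x axes) of the tested genes of the 10 members and the 5 pathway lists in 3 comparisons, with filled points where the edgeR adjusted p was under 0.05 and a bar at each list's median. The median of the early response genes lies at -1.57 for P3 against P2 and at 0.94 for P4 against P3.

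The genes whose pattern over the 8 samples was most like that of DUSP6 were RPL37, EPHB1, ARRDC4, UPF3AP1 and ZNF18, with Pearson r of log2 CPM from 0.953 to 0.969. For FGF2 they were ENSG00000236754, ACKR4, GAS2L1P2, TRAM2-AS1 and NKX1-2, with r from 0.966 to 0.978. These are the highest correlations among all tested genes, over samples whose genes share library and depth, and they describe likeness in these 8 samples only.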

How the data were processed

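Total RNA of 8 H9 hESC samples was sequenced by the authors from TruSeq stranded mRNA libraries. Per the submitters' processing notes, FastQC, Trim Galore, STAR 2.7.3a and RSEM 1.3.3 were used with GRCh38 (hg38). The annotation release and the strand setting are not given in the sources used here. The deposited files hold, per gene, the expected count, the TPM and the effective length (other unit) that RSEM estimated. Expected counts are not normalized, and 12.0% of their values are not whole since RSEM divides reads that match several genes. Depth was 26874899 to 38095600 counts per sample (median 34161086).

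Expected counts were rounded, genes were filtered with filterByExpr over the 4 lines, and counts were scaled by TMM and tested by the quasi-likelihood test of edgeR 4.0.16 (R 4.3.3), with Benjamini-Hochberg adjustment over all 19499 tested genes and 0.05 as the threshold. P3 and P4 were set against P1 and P2 as 2 groups of 4, and the 4 comparisons of lines were taken from 1 model of 4 lines. The study used DESeq2, which was run here (version 1.42.0) as an alternative, beside limma 3.58.1 on log2(TPM + 1) and log2(TPM + 0.1). Other alternatives were DESeq2 size factors in edgeR, no filter, a replicate block, no mitochondrial genes (37), the mitochondrial share as a covariate, the 4-line model or only the 4 samples compared, the study's thresholds, and each sample left out. The members, lists and tests were chosen with earlier results of these data known. Named genes were all members, up to 20 called genes of the 5 pathway lists with the largest changes, ligands with a mean of at least 1 TPM, POU5F1, NANOG and SOX2, and the 5 genes most correlated with DUSP6 and with FGF2. A log2 fold change smaller than its standard error was given no direction. Gene positions and exon overlaps are from GENCODE 29. On simulated counts with 200 changed genes, the comparison of 4 against 4 recovered 48% of 2-fold and 88% of 4-fold changes, and P4 against P1 recovered 22% and 76%, with 8 and 10 unchanged genes called. In the simulation the lines of a group shared 1 mean, with the spread taken from within lines. Real lines of a group can differ, so the figures for 4 against 4 need not hold for these data. The 2 samples of a line differed by far more than sampling noise (mean chi-squared per gene of 20.5 to 157). They were entered in the fits as separate samples and were not summed. The chi-squared was scaled to library totals only, so it includes differences of composition, and it does not show that the samples came from separate cultures.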

Additional observations from a re-analysis of the deposited data

Results flagged for a closer look

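In the groups of 4 samples, 4 of 60 gene and group pairs had 1 sample whose gap to its nearest neighbour, as a share of the range of log2 CPM, was above Dixon's 95% critical value for 4 samples, where chance alone would give about 3. FGFR1 in P1 and P2 hESCs was 972 CPM in P1 replicate 2 against 536 to 589 CPM in the others (gap 0.842 of the range). GPC3 in the same group was 319 CPM in P1 replicate 2 against 229 to 237 CPM (0.890). MYC in the same group was 105 CPM in P1 replicate 2 against 145 to 153 CPM (0.856). KSR2 in P3 and P4 hESCs was 6.09 CPM in P4 replicate 2 against 2.40 to 2.68 CPM (0.884). P1 replicate 2 is 1 of the 3 samples of high mitochondrial share, and its part in these values was not tested.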

How the results depend on the processing

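Of 18 alternative settings, FGFR3 stayed called in P3 and P4 against P1 and P2 hESCs under 16 and FGF2 under 13, and both kept their direction under all 18. Members called in that comparison went from 2 to 3 in the 4-line model, which added SPRY4, to 0 under the study's thresholds, and to 0 to 2 when 1 sample was left out. In P3 against P2 the count went from 3 to 1 under the study's thresholds, to 6 without the 3 samples of high mitochondrial share (added after the data were seen), and to 0 to 3 when 1 sample was left out. In P4 against P1 it went from 1 to 2 with no filter on low counts, to 3 without those 3 samples, to 0 with either limma scale, with only the 4 samples compared or under the study's thresholds, and to 0 to 2 when 1 sample was left out. In P4 against P3 it went from 0 to 1 with no filter and to 5 without the 3 samples, and in P2 against P1 from 0 to 1 with no filter. Pathway genes called in P3 and P4 against P1 and P2 hESCs went from 11 to 22 in the 4-line model, to 6 with either limma scale, to 3 without the 3 samples and to 3 under the study's thresholds, and ranged from 4 to 18 when 1 sample was left out. The cause of these moves was not tested. Fewer samples leave fewer degrees of freedom. Without the 3 samples, P1, P3 and P4 were single samples, and the comparisons of lines took their spread from the P2 pair alone. Counts of calls between lines from that fit, here and below, rest on the assumption that the single samples vary like that pair.

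Among values larger than their standard error, directions turned only where there was no call. P2 against P1 gave log2 fold changes between -0.74 and 0.099 for FGFR1 and between -1.10 and 0.444 for FGFR3 when 1 sample was left out, the highest without P1 replicate 2. Without the 3 samples it gave 0.0948 for FGFR1 and 0.440 for FGFR3, and with the mitochondrial share as a covariate 0.0655 for FGFR3. FGF2 in P4 against P3 lay between -0.0940 and 0.60, the lowest without P4 replicate 1, and GPC4 in P3 and P4 against P1 and P2 hESCs between -0.61 and 0.0161, the highest without P1 replicate 2.

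Of all tested genes, P3 and P4 against P1 and P2 hESCs gave 1470 calls, 3093 in the 4-line model, 2709 with DESeq2, 856 and 814 with limma, and 333 without the 3 samples. P2 against P1 gave 1, 479 with no filter and 98 with DESeq2. P3 against P2 gave 2291, 877 and 962 with limma, and 5226 without the 3 samples. P4 against P3 gave 646, 1722 with no filter, 1303 with DESeq2, 169 and 213 with limma, and 3970 without the 3 samples. P4 against P1 gave 1159, 2138 with no filter, 1748 with DESeq2, 479 and 463 with limma, and 3143 without the 3 samples.

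The numbers of the replicates did not pair the samples, since deviations of same-numbered samples from their line means correlated at -0.09 to 0.14 over pairs of lines. With the replicate block, 2 members were called in P3 and P4 against P1 and P2 hESCs, 4 in P3 against P2 with DUSP6 gained (adjusted p = 0.0340), and 1 in P4 against P1, where FGF2 was gained (0.0336) and FGFR3 lost (0.0678). It called no member in the other comparisons, and 9 pathway genes.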
